A study of Mus musculus with 10 samples.

Results

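Cartilage matrix structural genes are described here in the joint tissue of arthritic mice. They are 10 genes (Col2a1, Col9a1, Col9a2, Col9a3, Col11a1, Col11a2, Acan, Hapln1, Matn3 and Comp) of 18128 genes that an Affymetrix mouse genome array could name. For each gene the probe set (the group of probes that measures 1 transcript) with the highest mean over the arrays was taken among those naming that gene alone. All 10 genes had such a probe set, and 18 probe sets in all named 1 of them alone. No measured difference between groups entered this choice of probe sets, while the genes were chosen with earlier results of these data known.

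The data come from 10 mice, all male and of the inbred DBA/1J strain, with 1 array of hind-leg synovium per mouse. Their disease was collagen antibody-induced arthritis (CAIA), in which injected antibodies against cartilage collagen inflame the joints. The CAIA+MA group (5 mice, here the maslinic acid mice) received 200 mg of the olive triterpene maslinic acid per kg of body weight in corn oil by mouth every day. The CAIA group (5 mice, here the vehicle mice) received corn oil alone. In both groups an injection of 1 mg of antibody against type II collagen on day 8 was followed by 25 µg of bacterial lipopolysaccharide on day 11. The mice were killed on day 12. The mice were 5 weeks old when bought and are labelled as 8 weeks old. Per the submitters' design text, these 5 mice per group were picked from larger groups by a criterion not given in the sources used here. Untreated mice, which that text also mentions, were not analysed here, so the effect of arthritis itself cannot be read from these arrays.

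Cartilage is a gel held in a net. The net is a thin fibril of type II collagen, whose chain is Col2a1, copolymerised with type XI collagen (Col11a1 and Col11a2), which starts fibrils and limits their width, and covered with type IX collagen (Col9a1, Col9a2 and Col9a3), which links the fibril surface to its surroundings. The gel is aggrecan (Acan), a proteoglycan that binds water through its sulfated chains and is fixed to hyaluronan by link protein (Hapln1). Matrilin 3 (Matn3) and cartilage oligomeric matrix protein (Comp) are adaptors that tie these parts together, and Comp is also abundant in tendon and ligament. Type II collagen is at once a member of this group and the target of the antibody that induced the disease.

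Deposited values are called scores here, because their scale is unknown. Their level resembles a log2 intensity, but 93.5% of the 39993 probe sets ranged by less than 0.001 over the 10 arrays. A difference between arrays is thus not a log2 fold change, and levels of different probe sets were not set against each other. All 10 cartilage genes ranged by more than 0.001, from 0.00251 for Hapln1 to 0.126 for Col2a1, the gene of rank 27 in range among 18128. Every one of them held 10 distinct values, so rounding to 6 decimals does not limit them. Group differences are given as Hedges' g, which divides the gap between the means (maslinic acid minus vehicle) by the pooled SD and is positive where maslinic acid mice were higher. Its 95% confidence interval (CI) rests on n = 5 mice per group. On 2 of the vehicle arrays, replicates 3 and 5, values were less like those of their group, with limma array weights of 0.458 and 0.339 against 0.857 to 2.01 for the remaining 8. Of the tissue named in the labels, all 6 synovial lining markers were measured, with Prg4 (lubricin) at a mean score of 11.55 in both groups. Markers of bone and muscle were measured in the same samples, and detection calls were not used here. The number of arrays limits the precision throughout.

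The first question was how the cartilage genes were distributed over the mice. They were high and low in the same few animals. The lowest belonged to both groups, while the highest were mostly maslinic acid mice. Maslinic acid replicate 1 was the highest array for 7 of the 10 genes and the highest or second highest for 10 of 10. The highest or second highest place also went to maslinic acid replicate 5 for 6 genes and replicate 3 for 3. Among vehicle mice only replicate 3 reached it, for 1 gene. The lowest array was vehicle replicate 5 for 5 genes and maslinic acid replicate 2 for the other 5. Both stood among the lowest pair of arrays for 9 of 10 genes. The mean of the 10 genes, each scaled to unit SD, was 1.39 in maslinic acid replicate 1 and -1.31 in maslinic acid replicate 2, which bracket nearly the whole range within 1 group. The other maslinic acid mice had 0.39, -0.01 and 0.88 (replicates 3, 4 and 5), and the vehicle mice had -0.06, -0.38, 0.15, 0.35 and -1.41 (replicates 1 to 5). In whole tissue, fewer cartilage cells and less cartilage RNA per cell cannot be told apart, and the amount of cartilage in each dissected sample was not measured.

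Col2a1, the chain of the main fibril, had scores of 9.678, 9.581, 9.660, 9.640 and 9.642 in maslinic acid replicates 1 to 5, against 9.648, 9.608, 9.621, 9.644 and 9.553 in vehicle replicates 1 to 5. The lowest maslinic acid mouse and the lowest vehicle mouse were the lowest 2 of all arrays, and the groups overlapped. Acan had 8.095, 8.067, 8.087, 8.085 and 8.093 in maslinic acid mice, against 8.086, 8.079, 8.079, 8.085 and 8.063 in vehicle mice. The same 2 mice were lowest, and maslinic acid replicates 1 and 5 were highest.

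The type IX collagen genes had nearly 1 profile. Col9a1 had 9.438, 9.410, 9.423, 9.427 and 9.434 in maslinic acid mice, against 9.424, 9.419, 9.426, 9.429 and 9.413 in vehicle mice. Col9a2 had 6.8340, 6.8300, 6.8321, 6.8319 and 6.8331 in maslinic acid mice, against 6.8316, 6.8313, 6.8317, 6.8326 and 6.8301 in vehicle mice. Col9a3 had 7.858, 7.840, 7.849, 7.848 and 7.853 in maslinic acid mice, against 7.849, 7.846, 7.849, 7.851 and 7.843 in vehicle mice. In all 3 genes maslinic acid replicate 1 was highest and maslinic acid replicate 2 was lowest, so the vehicle values lay inside the maslinic acid range. Matn3 repeated this order more widely, with 8.187, 8.138, 8.163, 8.167 and 8.181 in maslinic acid mice, against 8.165, 8.163, 8.175, 8.173 and 8.156 in vehicle mice.

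The type XI genes differed from that profile in vehicle replicate 3. Col11a1 had 9.519, 9.510, 9.517, 9.516 and 9.519 in maslinic acid mice, against 9.512, 9.513, 9.522, 9.514 and 9.509 in vehicle mice. Col11a2 had 7.7752, 7.7682, 7.7756, 7.7711 and 7.7734 in maslinic acid mice, against 7.7695, 7.7709, 7.7752, 7.7716 and 7.7648 in vehicle mice. Vehicle replicate 3 was the highest of all arrays for Col11a1 and close to the highest for Col11a2, while it stood near the middle for type IX collagen.

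Hapln1 had 9.0505, 9.0480, 9.0483, 9.0490 and 9.0501 in maslinic acid mice, against 9.0485, 9.0489, 9.0482, 9.0500 and 9.0485 in vehicle mice. Vehicle replicate 5 was not among its lowest pair, unlike in the other 9 genes. Comp had 9.818, 9.808, 9.824, 9.802 and 9.815 in maslinic acid mice, against 9.818, 9.806, 9.806, 9.809 and 9.797 in vehicle mice. Its highest mouse was maslinic acid replicate 3, and maslinic acid replicate 2 was not among its lowest pair, again unlike in the other 9.

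**Figure D1:**
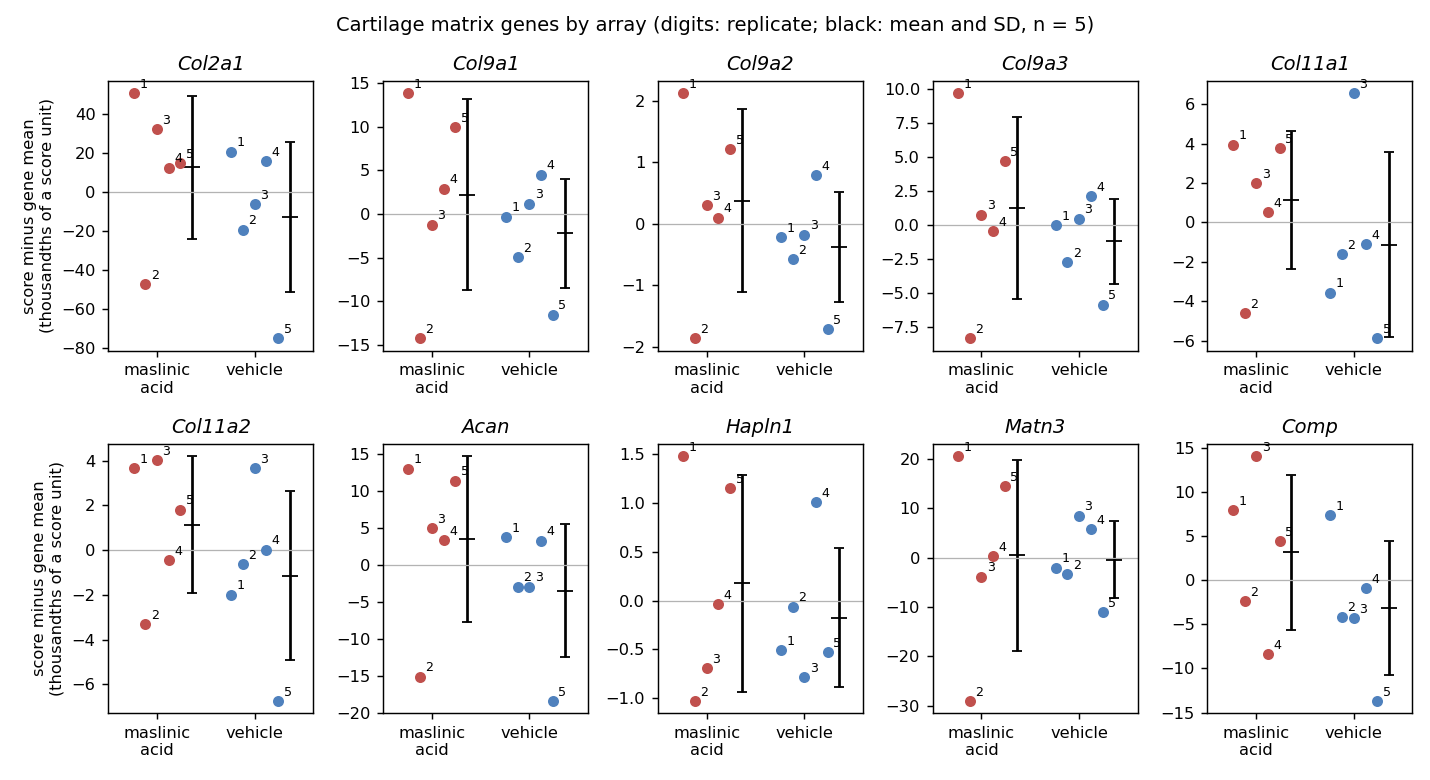
Score of each cartilage gene on each array, as the difference from that gene's mean over 10 arrays in thousandths of a score unit, with maslinic acid mice left and vehicle mice right. Digits are replicate numbers, and black bars show mean and SD (n = 5 each). Maslinic acid replicates 1 and 2 lie at opposite ends for most genes, and vehicle replicate 5 is low for 9 of 10.

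The spread within groups was wider with maslinic acid for most of these genes. The SD was larger in maslinic acid mice for 7 of the 10, by 2.48 times for Matn3 (0.0193 in maslinic acid mice, 0.00779 in vehicle mice) and 2.13 times for Col9a3 (0.00667 in maslinic acid mice, 0.00313 in vehicle mice). It was smaller for Col2a1, Col11a1 and Col11a2 (0.958, 0.746 and 0.813 times). Of all 6743 genes with 10 distinct values, 18.3% had the larger SD in maslinic acid mice. These shares are a description of correlated genes with 5 mice per group, and the difference in spread was not tested.

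The second question was which cartilage genes vary together. All 45 pairs of the 10 genes were positively correlated over the 10 arrays, with Pearson's r from 0.24 to 0.98 (median 0.76) and Spearman's rho from 0.26 to 0.96 (median 0.73). With permutation p-values adjusted over the 45 pairs, 34 pairs passed by Pearson's r and 26 by Spearman's rho. For comparison, the median r of the 10 genes with another gene was 0.13 over 6733 genes with 10 distinct values. With each group centred on its own mean, the median r was 0.74 and 32 pairs passed, so the relation did not rest on the group difference. Vehicle replicate 5 and maslinic acid replicate 2 were farthest from the median of Col2a1. Without both, all 45 r stayed above 0 (0.02 to 0.97, median 0.57), and 14 pairs passed. Without maslinic acid replicate 1 alone 16 pairs passed, and without vehicle replicate 5 alone 22 did. Without vehicle replicates 3 and 5 together 30 passed.

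The type IX collagen genes correlated closely with each other, with Matn3 (r from 0.91 to 0.95) and with Acan (0.92 to 0.95). Col9a2 and Col9a3 had r = 0.98 (rho = 0.96, permutation adjusted p = 0.00045), Col9a1 and Col9a2 0.98 (rho = 0.93, adjusted p = 0.00045), and Col9a1 and Matn3 0.95 (rho = 0.95, adjusted p = 0.00045). Without the 2 far arrays these were 0.97, 0.95 and 0.93. Col2a1 followed Acan most closely (r = 0.95, rho = 0.90, adjusted p = 0.00045, and 0.83 without the 2 far arrays), so the main fibril and the main proteoglycan were high in the same mice. Its r with the type IX genes ran from 0.85 for Col9a1 to 0.89 for Col9a2, and without the 2 far arrays from 0.66 to 0.77. Col11a1 and Col11a2, which join in 1 collagen, had r = 0.92 (rho = 0.90, adjusted p = 0.00107, and 0.87 without the 2 far arrays). Their r with Col2a1 were 0.64 and 0.80, and without the 2 far arrays 0.13 and 0.38. Those 2 arrays were chosen by Col2a1 itself, so leaving them out narrows its range and tends to lower its r. Hapln1 passed with 5 of the other 9 genes, among them Col9a2 (r = 0.83, rho = 0.76, adjusted p = 0.00636) and Matn3 (r = 0.77, rho = 0.72, adjusted p = 0.0143). Comp passed with 2 of 9, Col2a1 (r = 0.77, rho = 0.85, adjusted p = 0.0178) and Acan (r = 0.69, rho = 0.77, adjusted p = 0.0396), and had the lowest median r with the others (0.57). Acan passed with 9 of 9.

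**Figure D2:**
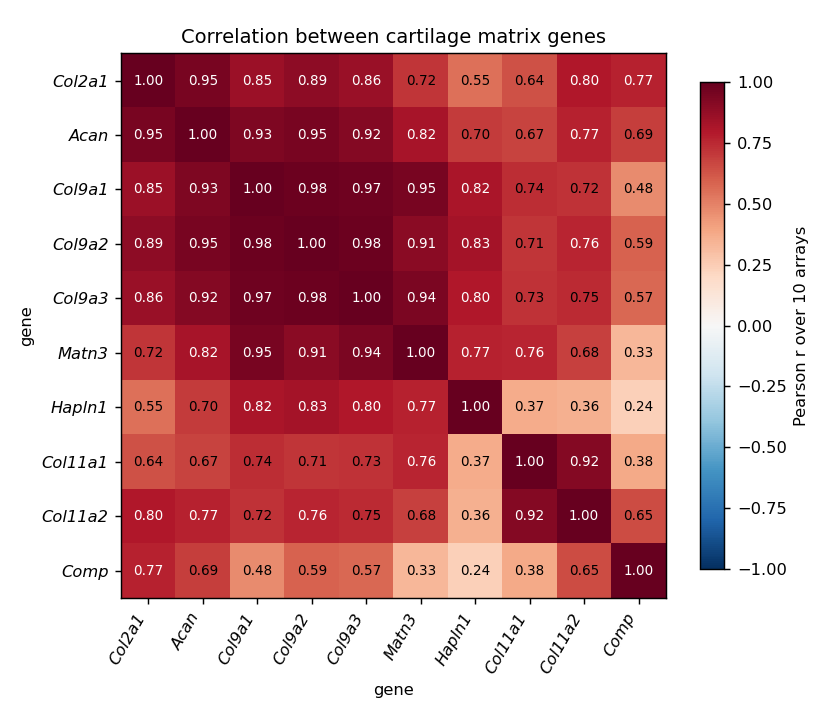
Pearson's r over 10 arrays for each pair of cartilage genes, with genes on both axes and r as colour and number. The type IX genes are dark with each other (0.97 to 0.98), with Acan (0.92 to 0.95) and with Matn3 (0.91 to 0.95), Col11a1 and Col11a2 pair at 0.92, and Comp has the palest column (0.24 to 0.77).

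The other probe sets of 5 genes repeat the measurement on the same RNA. The second probe sets of Col9a1, Col11a1 and Matn3 had r = 0.98, 0.98 and 0.97 with those used, and 1 of Col9a3 had 0.98. The remaining one of Col9a3, with a range of 2.6e-05 over the arrays, had r = 0.51. The other 3 of Hapln1 had r = 0.90, 0.74 and 0.63 with the one used, so the profile of Hapln1 depends on the probe set, although maslinic acid replicate 1 was highest and maslinic acid replicate 2 lowest in all 4.

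Since these genes moved together, the stretches of 250 bases before their transcript starts were read from RefSeq (build GRCm38.p6), which gave 8 starts for 7 of the genes. Col2a1, Col9a3 and Comp had no entry. Those of the correlated genes Col9a2 (chr4:121039316-121039565) and Matn3 (chr12:8947679-8947928) and of the pair Col11a1 (chr3:114030290-114030539) and Col11a2 (chr17:34038888-34039137), all on the + strand, read as follows, 5′ to 3′, with GC boxes and a TATA box in capitals.
Col9a2: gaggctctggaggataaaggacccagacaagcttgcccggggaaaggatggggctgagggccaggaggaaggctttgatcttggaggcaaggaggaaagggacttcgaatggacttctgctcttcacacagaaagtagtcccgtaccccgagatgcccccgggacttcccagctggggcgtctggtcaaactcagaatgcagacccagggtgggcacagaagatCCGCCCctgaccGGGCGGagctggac
Matn3: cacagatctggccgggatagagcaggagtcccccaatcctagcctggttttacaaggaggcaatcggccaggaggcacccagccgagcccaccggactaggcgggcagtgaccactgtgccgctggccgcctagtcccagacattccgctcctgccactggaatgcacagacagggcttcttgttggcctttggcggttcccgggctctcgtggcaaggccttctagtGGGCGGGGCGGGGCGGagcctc
Col11a1: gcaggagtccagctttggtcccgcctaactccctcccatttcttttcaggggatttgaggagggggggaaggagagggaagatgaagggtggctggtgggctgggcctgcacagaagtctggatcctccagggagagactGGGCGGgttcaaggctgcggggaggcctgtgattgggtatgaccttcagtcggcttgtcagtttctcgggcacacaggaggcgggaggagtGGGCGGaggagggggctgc
Col11a2: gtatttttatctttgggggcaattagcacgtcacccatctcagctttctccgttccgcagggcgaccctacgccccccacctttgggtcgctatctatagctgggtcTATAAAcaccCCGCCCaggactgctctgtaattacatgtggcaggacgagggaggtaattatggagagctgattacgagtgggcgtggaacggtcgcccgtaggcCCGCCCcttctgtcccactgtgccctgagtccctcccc
The GC box GGGCGG, searched on both strands, stood in 5 of the 8 stretches, those of Acan, Matn3, Col9a2, Col11a1 and Col11a2, against 32.7% of all 32851 stretches of this length. Those 5 consisted of G and C to 57.6% (Col11a2) to 74.4% (Acan), against a median of 52.4% over all stretches. The counts were not adjusted for this. Matn3 held 3 copies in an overlapping run, and Acan 3 of which 2 overlap. Both starts of Col9a1 had 0, although Col9a1 followed Col9a2 and Matn3 closely. The TATA box TATAAA stood in 1 of 8, Col11a2, against 12.4% of all stretches. The core ACAAT of SOX factors, the family of the cartilage regulator Sox9, stood in 1 of 8 (Hapln1) against 27.7%, and ACAAAG in 0 of 8 against 16.5%. These counts describe letters in short windows, and no distal region was read.

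The third question was which other genes follow the cartilage genes, and so what else was in the samples where they were high. The lists held 105 other genes, giving 1050 pairs with the 10 cartilage genes, and p-values were adjusted over these 1050. By Pearson's r 26 pairs passed, all positive, and by Spearman's rho 1. Without single arrays the 26 became 0 (without maslinic acid replicate 2), 1 (without vehicle replicate 5 or maslinic acid replicate 3), 3 (without maslinic acid replicate 1) and 6 (without maslinic acid replicate 5), so the calls are fragile and the r values below are mainly descriptive.

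Other chondrocyte and cartilage genes gave 15 of the 26, and their median r with the 10 genes was 0.52. Their r ran from -0.79 to 0.98 and was positive in 195 of 220 pairs, so some of these genes ran against the 10. Cnmd, chondromodulin, a cartilage glycoprotein that blocks vessel growth, passed with 6 of them. With Col9a3 it had r = 0.98 (rho = 0.98, permutation adjusted p = 0.0245, and 0.95 without the 2 far arrays), the 1 pair that also passed by Spearman's rho. Col10a1, the collagen of hypertrophic cartilage, passed with Matn3 (r = 0.94, rho = 0.90, adjusted p = 0.0245) and the 3 type IX genes (r from 0.90 to 0.94). From the genes of proteoglycan synthesis, which gave 7 of the 26, Papss2, which makes the sulfate donor for proteoglycan chains, passed with 6 genes, among them Col11a2 (r = 0.93, rho = 0.93, adjusted p = 0.0285) and Acan (r = 0.92, rho = 0.84, adjusted p = 0.0285). Acan also passed with Chst11, a chondroitin sulfotransferase (r = 0.93, rho = 0.81, adjusted p = 0.0285). Sox9, the transcription factor that drives Col2a1 and Acan in chondrocytes, did not pass with any of the 10. Its r ran from 0.42 with Col11a1 to 0.78 with Acan.

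Comp, which had the lowest median r with the other 9, passed with Chad, chondroadherin (r = 0.91, rho = 0.93, permutation adjusted p = 0.0285), Cilp2, an intermediate layer protein (r = 0.91, rho = 0.90, adjusted p = 0.0321), Prelp, a leucine-rich matrix protein (r = 0.87, rho = 0.94, adjusted p = 0.0497), and Sox5, a partner of Sox9 (r = 0.94, rho = 0.94, adjusted p = 0.0285). It also passed with Fmod, fibromodulin, which is abundant in tendon (r = 0.87, rho = 0.92, adjusted p = 0.0294), and with Pcolce, an enhancer of procollagen processing (r = 0.89, rho = 0.79, adjusted p = 0.0285). Its median r with the 7 tendon and ligament markers was 0.60, while those of the other 9 cartilage genes ran from -0.13 (Matn3) to 0.23 (Col11a2). The likeness of Comp was not particular to tendon. Its median r was 0.62 with collagen processing genes, 0.58 with bone markers and 0.41 with fat markers. It was negative with muscle (-0.24), neutrophil (-0.39) and epidermis markers (-0.24). Col2a1 and Acan also had high r with several of the genes that passed with Comp, without passing. With Col2a1, r was 0.83 for Fmod, 0.82 for Chad, 0.82 for Pcolce and 0.77 for Cilp2, and with Acan it was 0.78 for Chad and 0.74 for Fmod. The lubricin gene Prg4, made by the synovial lining and superficial cartilage, had r = 0.74 with Comp (rho = 0.77, adjusted p = 0.152) and from -0.19 to 0.29 with the other 9. The difference between Comp and the others was not tested.

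The type XI genes passed with Col1a1, a chain of type I collagen, at r = 0.87 for Col11a1 (rho = 0.88, permutation adjusted p = 0.0285) and 0.92 for Col11a2 (rho = 0.79, adjusted p = 0.0285). Without the 2 far arrays these were 0.88 and 0.80. Over the 8 bone markers measured, however, the median r was 0.32 for Col11a1, 0.43 for Col11a2 and 0.27 for the 10 genes together. Muscle markers (median r 0.03, with Acta1, skeletal actin, from 0.09 to 0.32), fat markers (-0.08), synovial lining markers (-0.16), macrophage markers (-0.15), epidermis markers (-0.12) and neutrophil markers (-0.30) gave 0 calls with these genes. Rounding limits the medians of the epidermis and neutrophil markers, of which 0 of 6 and 3 of 5 held 10 distinct values. The median r for cartilage-degrading enzymes and their inhibitors was 0.08, also with 0 calls. The 2 red cell markers measured of 6, Alas2 and Slc4a1, had a median r of 0.65 with 0 calls, from 0.10 for Comp to 0.75 for Col11a1. The part of other tissues in the cartilage profile was not tested.

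**Figure D3:**
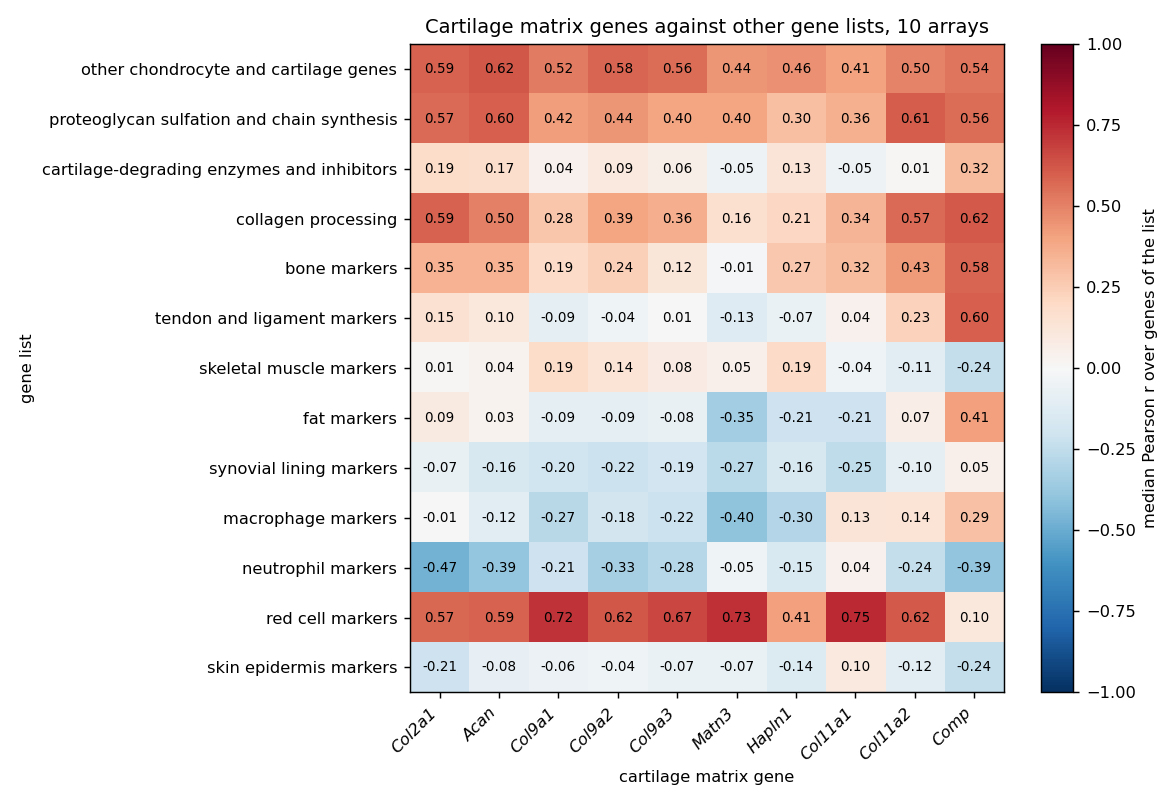
Median Pearson's r over 10 arrays between each cartilage gene (horizontal axis) and the genes of 13 lists (vertical axis), as colour and number. The chondrocyte row is positive throughout (0.41 to 0.62), the tendon row is high only for Comp (0.60, the others at most 0.23), and the red cell row rests on 2 markers.

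Among all 6733 other genes with 10 distinct values, those most like the cartilage genes were ranked by their median r with the 10. In this order they were Papss2 (0.88), Ncmap, a myelin protein (0.87), Cnmd (0.87), Tnfrsf1b, a tumour necrosis factor receptor (0.86), Ubn2, a chromatin protein (0.85), Chadl, a chondroadherin relative (0.84), Col10a1 (0.84), Igtp, an interferon-inducible GTPase (0.83), Kat6a, a histone acetyltransferase (0.83), and Ptdss2, a phosphatidylserine synthase (0.83). Papss2, Cnmd, Chadl and Col10a1 are known from cartilage. The genes most opposed were Orm1, an acute-phase protein of inflammation (-0.86), Phax, an RNA export adaptor (-0.83), the clone-named 2610203C22Rik (-0.83), Mocs2, an enzyme of molybdenum cofactor synthesis (-0.82), and Il18, an inflammatory cytokine (-0.82). Orm1 had scores of 7.8489, 7.8511, 7.8500, 7.8503 and 7.8498 in maslinic acid mice, against 7.8497, 7.8506, 7.8504, 7.8496 and 7.8509 in vehicle mice. Its highest arrays were maslinic acid replicate 2 and vehicle replicate 5, those lowest in cartilage genes. These genes were chosen by r, so the r values have no test. Several of them varied very little. Tnfrsf1b, Ubn2, Chadl, Phax and 2610203C22Rik ranged over the arrays by only 2.8e-05 (2610203C22Rik) to 6.8e-05 (Chadl).

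**Figure D4:**
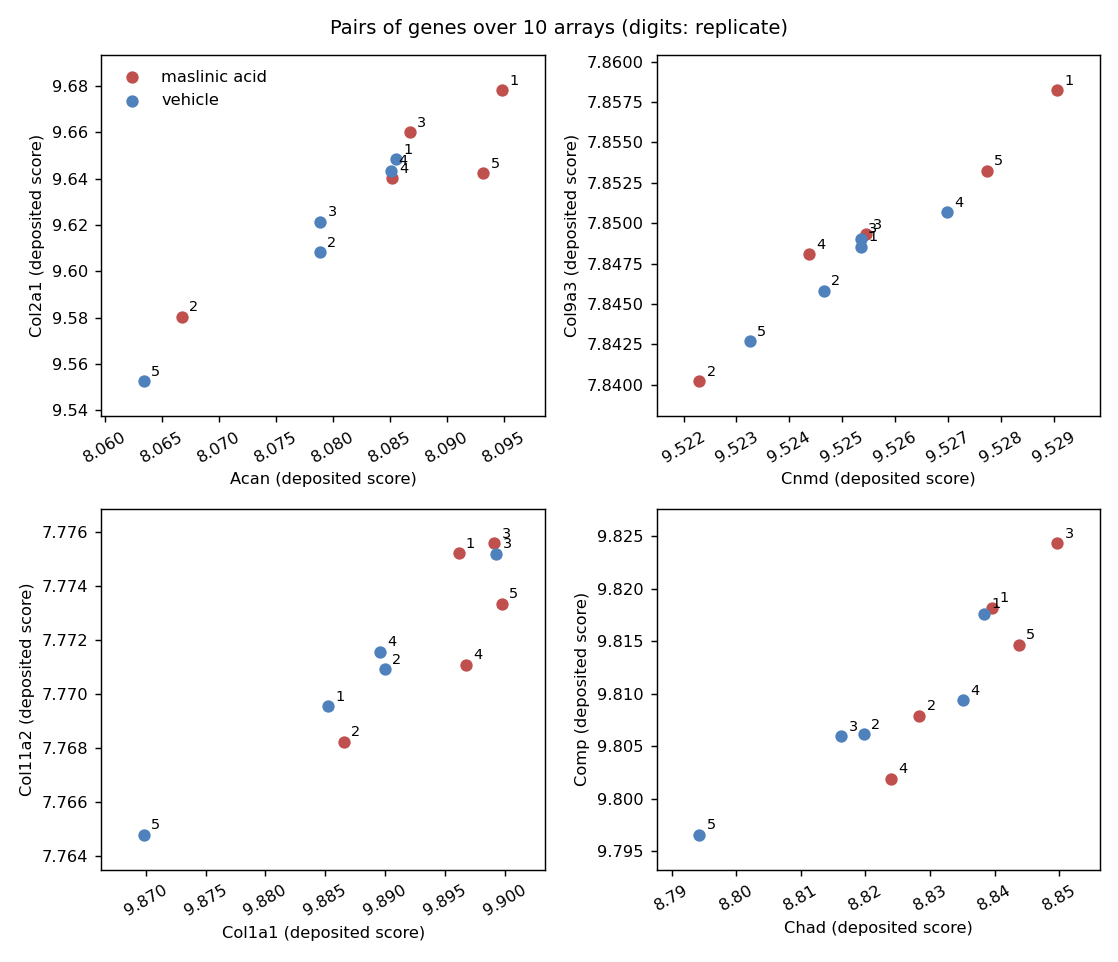
Deposited scores of 4 pairs of genes on 10 arrays (maslinic acid mice red, vehicle mice blue, digits for replicates). Col2a1 against Acan (r = 0.95), Col9a3 against Cnmd (0.98), Col11a2 against Col1a1 (0.92) and Comp against Chad (0.91) each rise along 1 line that mixes both groups.

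The last question was whether maslinic acid changed the cartilage genes. No change was detected. In limma's moderated test over all probe sets 0 of the 10 genes had an adjusted p under 0.05 (adjusted p from 0.711 for Comp to 0.991 for Matn3), as did 0% of the 39993 probe sets. At an unadjusted p under 0.05 there were again 0 of 10 genes, against 9.04% of all probe sets (3.77% higher in maslinic acid mice). In exact permutation tests of single genes over all 252 assignments of the arrays, two-sided, p ran from 0.254 to 0.937, unadjusted. The values of the groups overlapped in all 10 genes, and failed to overlap in 1.36% of all probe sets.

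The means of all 10 were nonetheless higher in maslinic acid mice, against 43.7% of all probe sets and 47.9% of all 18128 genes. Hapln1 turned lower (g = -0.17) after quantile normalization. Of the probe sets not used, 1 of Hapln1 (g = -0.04) and 1 of Col9a3 (g = -0.59, range 2.6e-05) were lower, and the rest were higher. The genes are correlated, so these are not 10 independent observations. The median g was 0.52, against 0 over all 18128 genes. Comp had the largest g (0.69, 95% CI -0.50 to 1.84), with 9.813 ± 0.00875 in maslinic acid mice and 9.807 ± 0.00757 in vehicle mice (SD, n = 5 each). Acan followed (0.62, -0.55 to 1.76), with 8.085 ± 0.0112 in maslinic acid mice and 8.078 ± 0.00894 in vehicle mice. Col2a1 (0.61, -0.56 to 1.75) had 9.640 ± 0.0368 in maslinic acid mice and 9.615 ± 0.0384 in vehicle mice. Col11a2 was at 0.60 (-0.57 to 1.74) and Col11a1 at 0.49 (-0.67 to 1.62). The type IX genes ran from 0.43 for Col9a3 (-0.72 to 1.55) to 0.55 for Col9a2 (-0.61 to 1.69). Hapln1 was at 0.34 (-0.80 to 1.46), and Matn3 was lowest at 0.06 (-1.06 to 1.18). Every interval includes 0 and an upper bound of at least 1.18, the value for Matn3, so 5 mice per group leave the size of any difference wide.

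The size of the difference turned on a few mice. Without maslinic acid replicate 2 the median g was 1.05, and without vehicle replicate 5 it was 0.26. Without maslinic acid replicate 1 it was 0.29, and without maslinic acid replicate 5 it was 0.35. Without maslinic acid replicate 1, maslinic acid replicate 5 or vehicle replicate 5, 9 of 10 means stayed higher, and Matn3 was lower. Without vehicle replicates 3 and 5 together the median g was 0.23, with all 10 means still higher. In none of these settings did any of the 10 genes pass.

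**Figure D5:**
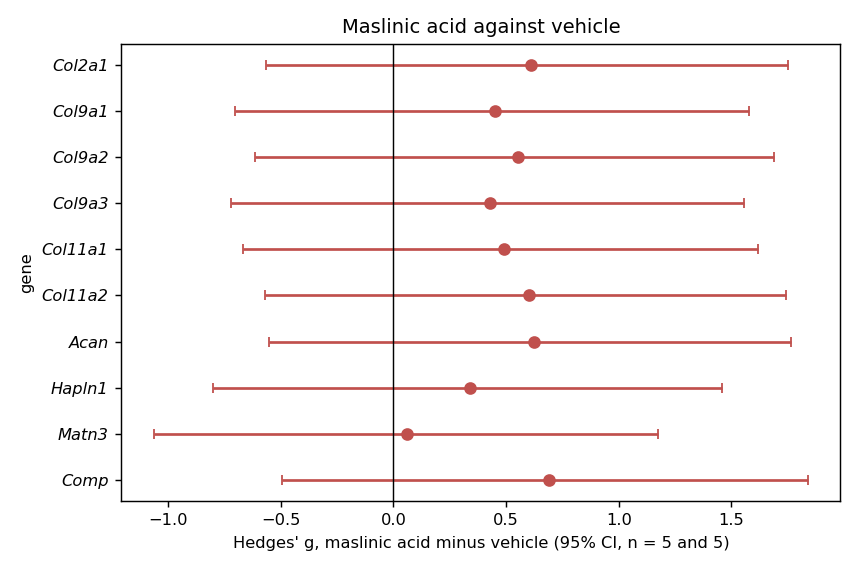
Hedges' g of maslinic acid minus vehicle for the 10 cartilage genes (points) with 95% confidence intervals (bars, n = 5 and 5). All points lie between 0.06 and 0.69, and all intervals cross 0.

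Other cartilage and collagen gene groups mostly had higher means in maslinic acid mice too, against 47.9% of all 18128 genes, and 0 of their genes passed over the whole table (0%). Of 22 other chondrocyte and cartilage genes 18 were higher and 4 lower in maslinic acid mice (median g = 0.58), with an unadjusted p under 0.05 for 2. These were Ucma, a cartilage matrix protein (g = 1.83, 95% CI 0.37 to 3.22, limma adjusted p = 0.483), and Sox9 (1.53, 0.15 to 2.83, adjusted p = 0.496). Col10a1 was at 0.03 (-1.09 to 1.15), and Prg4 at 0.34 (-0.80 to 1.46). The g of Ucma was 0.048 after quantile normalization, and that of Sox9 was 0.42 with arrays centred on their medians. Of 9 measured genes for the synthesis and sulfation of proteoglycan chains 6 were higher and 3 lower (median 0.30), with Ext1 at 1.64 (0.24 to 2.98) and Chpf at 1.30 (-0.01 to 2.56).

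Of 11 measured genes for collagen processing and secretion 10 were higher and 1 lower (median 1.08), 4 at an unadjusted p under 0.05. They included Plod2, a collagen lysyl hydroxylase (g = 1.81, limma adjusted p = 0.488), and Sec23a, a coat protein of the vesicles that export procollagen (3.02, 1.15 to 4.81, limma adjusted p = 0.418). The Sec23a score differed by 1.54e-05 between groups and its values did not overlap. All 8 cartilage-degrading enzymes and inhibitors had higher means (median 0.67, 0 at an unadjusted p under 0.05), with Htra1 at 1.20 (-0.09 to 2.43) and the collagenase Mmp13 at 1.03 (-0.22 to 2.22). All 8 bone markers measured were higher too (median 0.96), with Ibsp, bone sialoprotein, at 1.46 (0.11 to 2.75) and Col1a1 at 0.95 (-0.29 to 2.13). The mean scaled level of the bone markers ran from -0.03 to 0.92 in maslinic acid mice and from -1.29 to 0.02 in vehicle mice. That of the 10 muscle markers (10 of 10 higher, median g 0.40, Acta1 at 0.81, -0.39 to 1.98) ran from -0.79 to 0.90 in maslinic acid mice and from -1.68 to 0.77 in vehicle mice. Of the other cell type markers, 5 of 5 fat markers (median g 0.99, 2 at an unadjusted p under 0.05) and 6 of 6 synovial lining markers (0.18) had higher means in maslinic acid mice. So did 5 of 6 macrophage markers (0.52), 6 of 7 tendon markers (0.76) and 3 of 6 epidermis markers (0.02). The epidermis markers ranged by 3e-06 (Krt1) to 1.3e-05 (Krt10) and 0 of 6 held 10 distinct values, so rounding limits their direction. All 5 neutrophil markers measured had lower means (median g -0.93, 2 at an unadjusted p under 0.05). Of these 5, 3 held 10 distinct values, among them the 2 of lowest p, Cxcr2 and Csf3r. Cxcr2 had g = -2.71 (-4.39 to -0.96, limma adjusted p = 0.418), and its values did not overlap between groups. Csf3r was at -1.89 (-3.30 to -0.41, limma adjusted p = 0.476). Mmp8, also with 10 distinct values, was at -0.57 (-1.70 to 0.60). The g of Cxcr2 and Csf3r under other normalizations was not examined. S100a8 (g = -0.57) and S100a9 (g = -0.93, the median) each held 2 distinct values with a range of 1e-06, so rounding limits their direction. The mean scaled level of this list includes both. It ran from -0.88 to -0.17 in maslinic acid mice and from -0.06 to 1.12 in vehicle mice. After quantile normalization Sox9 (-0.10), Ext1 (-0.38), Chpf (-0.72), Plod2 (-0.24), Sec23a (-1.21) and Acta1 (-0.57) had the opposite direction. With arrays centred on their medians Chpf was at 0.13, Mmp13 at 0.20, Acta1 at 0.20 and Sec23a at -0.21. The part of any of these tissues or cells in the cartilage difference was not tested.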

How the data were processed

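Total RNA of left hind leg synovium, cleaned of muscle and skin per the labels' protocols, was labelled from 100 ng and hybridised to 3' expression arrays. The deposited score of a probe set was made by the authors with R 3.2.1 per the submitters' processing notes. The background correction, normalization and summary were not stated there, and scores were used as they stand. Of 39993 probe sets 34202 named 1 gene, 931 several and 4860 none in the platform annotation. The RefSeq table changed 0 symbols. All per-sample columns were used, and 0 pairs of arrays were identical.

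limma 3.58.1 (R 4.3.3; lmFit, eBayes, prior degrees of freedom 0.503) compared maslinic acid with vehicle over all probe sets, two-sided, with Benjamini-Hochberg adjustment and a threshold of 0.05. Correlations used 100000 permutations. Python 3.11.15 with numpy 2.4.6, pandas 2.3.3 and scipy 1.17.1 did the rest. The labels call the arrays biological replicates and give no scan date. Deviations of same-numbered mice of the 2 groups had r from -0.39 (replicate 2) to 0.35 (replicate 1), with 0.34 for replicate 4. These few values cannot decide whether the numbers mark pairs, and the main setting treated the mice as unpaired. The genes and lists were chosen with earlier results of these data known. Genes named besides the 10 were 5 tissue landmarks, in the lists described the 2 of lowest p, and the 10 most and 5 least alike. List genes named for a correlation were chosen after their values were seen. The limma fit was also run on simulated probe sets that varied independently, so that run does not bear on correlated genes such as these. Alternatives were a gene-level table, filters, normalizations, variance priors, array weights, the replicate block, other probe sets and arrays left out.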

Additional observations from a re-analysis of the deposited data

Results flagged for a closer look

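Col1a1, a chain of type I collagen, had 1 maslinic acid mouse far from the other 4. Maslinic acid replicate 2 had a score of 9.887, and the others lay between 9.896 and 9.900. Its gap to the nearest was 0.725 of the group's range, above Dixon's critical value for 5 samples. Of 30 groups of values checked this was the 1 that stood out, and chance alone does so in about 1 in 20.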

How the results depend on the processing

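Under 21 alternatives 0 of the 10 cartilage genes passed, and 206 of 210 values of g kept their direction. The gene-level table, the filters and the other variance prior cannot change g, because they alter only the test or the genes tested. Choosing probe sets by their number of different values also left all 10 g unchanged. Directions kept under those settings are therefore no check of stability. Hapln1 turned to -0.17 after quantile normalization. Without single mice Matn3 ran from -0.27 to 0.77. Of the other named genes, quantile normalization turned Sox9 (-0.10), Col10a1 (-0.025), Acta1 (-0.57), Ext1 (-0.38), Chpf (-0.72), Sec23a (-1.21) and Plod2 (-0.24), and with arrays centred on their medians Sec23a was at -0.21. Quantile normalization left Ucma at 0.048. Median centring left Sox9 at 0.42, Chpf at 0.13, Mmp13 at 0.20 and Acta1 at 0.20, and probe sets at an unadjusted p under 0.05 numbered 737 with it and 2009 after quantile normalization, against 3617 in the main setting. Without vehicle replicates 3 and 5 Col10a1 was at -0.11 and Prg4 at -0.087, and without single mice Col10a1 ran from -0.34 to 0.49. The count of probe sets that passed was 8 after quantile normalization, 0 to 1 without single mice and 0 otherwise. Correlated pairs of cartilage genes numbered 16 to 34 without single mice, 26 with Spearman's rho and 38 with the replicate block, which left 0 probe sets called and changed no call among the 10 genes. Pairs with list genes, 26 in the main setting, numbered 1 with Spearman's rho, 0 after quantile normalization, 1 without vehicle replicates 3 and 5, 215 with the replicate block and 0 to 37 without single mice. The causes were not tested. With 5 mice per group and an unknown scale, neither small effects nor fold changes can be read.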

Other observations

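Maslinic acid replicate 2 and vehicle replicate 5, the mice lowest in cartilage genes, were alike well beyond them. Their deviations from their own group means, scaled per gene, had r = 0.65 across 6743 genes, which are not independent replicates, against -0.51 to 0.35 for the other 24 pairs of a maslinic acid and a vehicle array. They differed elsewhere: macrophage markers had a mean scaled level of 0.99 in maslinic acid replicate 2 and -1.20 in vehicle replicate 5, and tendon markers of 0.56 and -0.86 in the same order.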
